A study of Mus musculus with 5 samples.

Results

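Mitochondrial ribosomal protein genes were compared between marrow stromal cells of the Dlx5 and the Fgfr3 lineage. The genes were chosen by name alone, as the protein-coding genes whose mouse symbol is Mrpl or Mrps followed by a digit, a rule that uses no measured value, although the family itself was picked with earlier results of these data known. The rule found 78 genes among the 17087 protein-coding genes of the 30046 counted features, 49 with an Mrpl symbol (large subunit) and 29 with an Mrps symbol (small subunit). The bulk RNA-seq libraries came from CXCL12-abundant reticular (CAR) cells, the stromal cells that support blood formation, sorted as GFP and tdTomato double-positive cells from femurs at postnatal day 21 after tamoxifen at embryonic day 12.5. There were 3 libraries of Dlx5-derived CAR cells, carrying Cxcl12(GFP/+), Dlx5(CreER/+) and R26R(tdTomato/+), and 2 libraries of Fgfr3-derived CAR cells, carrying Cxcl12(GFP/+), Fgfr3-iCreER and R26R(tdTomato/+), which the labels number 2 and 3. All cells thus carry a GFP allele in Cxcl12 and a tdTomato reporter, and the CreER driver marks cells of the fetal perichondrium (Dlx5) or of the fetal cartilage (Fgfr3). Mice of 1 genotype were pooled for each library.

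The mitochondrial ribosome translates the few proteins that mitochondrial DNA encodes, all of them subunits of the oxidative phosphorylation complexes. Its RNAs come from mitochondrial DNA, but all of its proteins are encoded in the nucleus, made in the cytosol and imported. Many of these proteins have bacterial homologues, and others exist only in mitochondria. The symbols do not always follow the structure. Mrps30 and Mrps18a are placed in the large subunit by structure, and Mrps36 is known as a component of the 2-oxoglutarate dehydrogenase complex.

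The sequence shown for the member with the largest difference is a coding stretch of Mrpl23 that its pseudogene shares, whose product lies at the polypeptide exit tunnel. Mrpl23 (chromosome 7, 142532686 to 142540747, plus strand, GRCm38) has a processed pseudogene, Mrpl23-ps1 (chromosome 2, 74591330 to 74591909, minus strand), a copy of the spliced transcript in a single exon. Over the 438 coding bases of the gene, the pseudogene had 0 mismatches in GENCODE M21, and the longest identical stretch of their transcripts was 540 bases. Coding bases 101 to 300 are shown, with 3 bases in capitals on each side of the 3 exon junctions that the gene splices and the pseudogene holds without an intron.
Mrpl23 and Mrpl23-ps1: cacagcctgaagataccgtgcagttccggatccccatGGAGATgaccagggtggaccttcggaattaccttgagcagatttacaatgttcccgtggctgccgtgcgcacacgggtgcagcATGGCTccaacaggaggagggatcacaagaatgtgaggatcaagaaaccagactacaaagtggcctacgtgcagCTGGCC

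The 250 bases before the start site are shown for a member that was higher (Mrpl45) and a member that was lower (Mrpl27) in Fgfr3-derived CAR cells, with matches to 2 short motifs in capitals. The sequences are RefSeq promoter windows on GRCm38.p6. In the Mrpl45 window, chr11:97315466-97315715 on the plus strand, the capitals mark matches on either strand to the core bound by NRF1, a factor known to drive many nuclear genes for mitochondrial proteins. In the Mrpl27 window, chr11:94653541-94653790 on the plus strand, they mark CCGGAAGT, the core bound by the ETS factor GABPA. Mrpl27 was called by edgeR with an adjusted p of 0.0449, and the call was lost under several alternatives given below. Motifs were not compared between higher and lower members.
Mrpl45: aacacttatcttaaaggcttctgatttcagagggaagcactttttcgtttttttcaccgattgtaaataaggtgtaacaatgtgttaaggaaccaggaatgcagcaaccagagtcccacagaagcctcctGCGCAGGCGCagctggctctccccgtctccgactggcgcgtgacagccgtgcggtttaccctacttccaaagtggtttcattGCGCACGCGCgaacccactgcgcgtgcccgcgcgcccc
Mrpl27: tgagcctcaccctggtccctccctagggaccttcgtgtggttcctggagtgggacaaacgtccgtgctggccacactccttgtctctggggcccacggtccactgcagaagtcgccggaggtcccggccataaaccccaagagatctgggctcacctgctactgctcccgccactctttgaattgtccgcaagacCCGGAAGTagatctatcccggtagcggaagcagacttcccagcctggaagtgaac

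RefSeq windows from 250 bases before to 50 bases after the start site were found for 69 of the 78 members, with 75 windows in all. Counting both strands, the NRF1 core was present in 17.3% of the members' windows and in 4.6% of all 32851 windows. CCGGAAGT was present in 16% of the members' windows and 3.89% of all windows, and AAGATGGCG, the core of YY1, in 10.7% and 1.4%. At least 1 of the 3 was present in 41.3% of the members' windows, 45.8% for Mrpl genes and 33.3% for Mrps genes, against 9.24% of all windows. These are matches of letters and not sites shown to be bound.

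Depth differed by lineage, with 22035650 to 32563758 counts per library in Dlx5-derived and 56355203 and 58166285 in Fgfr3-derived CAR cells, and so did the sequencing, which the study's methods give as long paired-end reads on a NovaSeq for the Dlx5 libraries and short single-end reads on a HiSeq for the Fgfr3 libraries. Lineage and sequencing therefore cannot be told apart in any comparison. The summed level of 10 CAR cell markers, in CPM (counts scaled to the same library total, here with TMM factors), was 34958 to 37106 in the Dlx5 libraries and 14137 and 9241 in the Fgfr3 libraries, and 8 of the 10 were lower. The CAR cell marker Foxc1, a transcription factor named here after its values were seen, was higher, at 36.7, 59.2 and 54.5 CPM against 331 and 378 CPM. All 12 pan-leukocyte markers were higher, with a summed level of 434 to 528 CPM against 1404 and 2986, as were all 10 neutrophil markers, with 2631 to 3281 CPM against 7390 and 18238. Of 17 proliferation genes, 14 were higher, with 679 to 1087 CPM against 2024 and 2507, and of 7 tested osteoblast markers 4 were higher, with 3932 to 5546 CPM against 7610 and 10220. The summed chondrocyte markers were 134 to 144 CPM in the Dlx5 libraries, 3376 CPM in Fgfr3 replicate 2 and 486 CPM in Fgfr3 replicate 3. Of 3 tested chondrocyte markers, 2 were higher. Sox9, which was not called, had 131, 123 and 129 CPM in the Dlx5 libraries and 102 and 56.5 CPM in the Fgfr3 libraries. Col2a1 had 7.38, 3.32 and 0.795 CPM against 2734 and 361 CPM. Both were named after their values were seen. Erythroid markers summed to 37856, 18548 and 24430 CPM in the Dlx5 libraries and 14311 and 21276 CPM in the Fgfr3 libraries. Of these 8 markers, 2 were lower and 0 higher. By the levels of the erythroid markers, RNA of other cells was present in the libraries of both lineages. The part of these other cells in the results below was not tested, and in bulk libraries fewer cells of a type and less RNA per cell cannot be told apart.

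Members of the mitochondrial ribosome differed little between the lineages. Of the 78 members, 77 passed the filter of at least 10 CPM in at least 2 libraries, and Mrpl47, at 9.82, 11.1 and 8.75 CPM in the Dlx5 libraries and 9.51 and 8.82 CPM in the Fgfr3 libraries, did not. At an adjusted p under 0.05, 2 members were higher in Fgfr3-derived CAR cells, 6 were lower and 69 were not called. The balance of these calls turned with library size alone as scaling (8 higher and 2 lower) and without Fgfr3 replicate 2 (6 higher and 3 lower). Over all 10088 genes tested, 48.4% were called in either direction, 25% higher and 23.4% lower. With a log2 fold change beyond 1 as a further condition, 0 members were higher and 1, Mrpl23, was lower, against 16.4% and 13.1% of all genes. Beside this count of 0 from edgeR, 0 members were higher beyond a log2 fold change of 1 at an unadjusted p under 0.05 or by DESeq2. Without the fold condition, 4 members were higher and 12 lower at an unadjusted p under 0.05, and DESeq2 called 3 higher and 11 lower.

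The members' fold changes lay in a narrow range around 0. The median log2 fold change (Fgfr3 over Dlx5) was -0.10, with quartiles of -0.31 and 0.18, where all genes tested had a median of 0.01 and quartiles of -0.52 and 0.57. The median size of the log2 fold change, without its sign, was 0.21 for the members and 0.54 for all genes. The standard errors were similar, with a median of 0.18 for the members and 0.20 for all genes. The 95% interval of the log2 fold change lay wholly within -1 and 1 for 72 of the 77 members (93.5%) and for 48.2% of all genes tested, so that for these members a 2-fold difference was outside the interval. The 5 other members were Mrpl23, Mrpl33, Mrpl45, Mrpl54 and Mrps33.

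**Figure D1:**
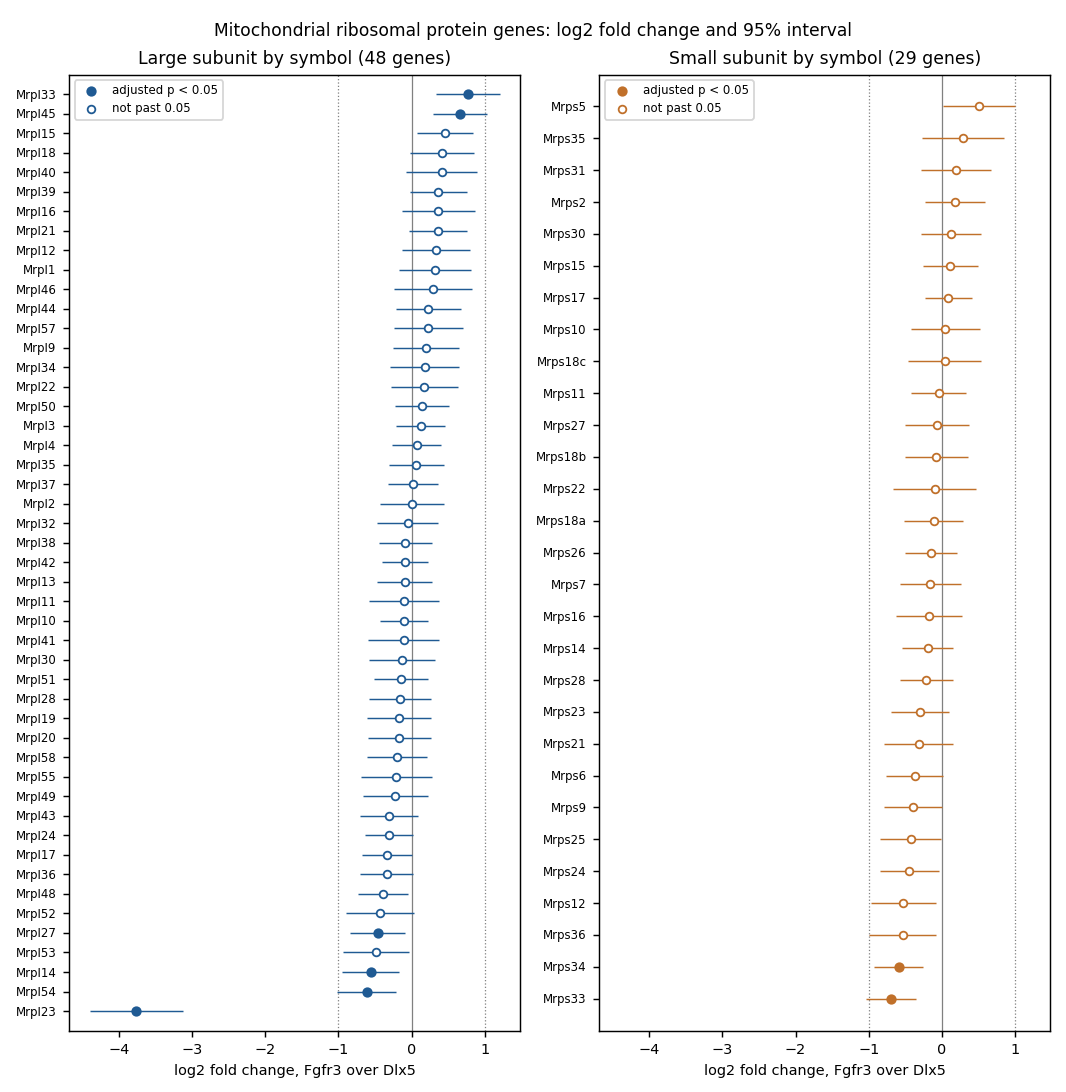
Log2 fold change (Fgfr3 over Dlx5, horizontal axis) of each tested member, ordered within the large subunit (48 genes, left) and the small subunit (29 genes, right). Bars are 95% intervals, filled points passed an adjusted p of 0.05, and dotted lines mark -1 and 1, between which 72 of the 77 intervals lie. Mrpl23 stands alone at -3.77.

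The libraries of the lineages overlapped for most members. In 42 of the 77 members the levels of the Dlx5 and Fgfr3 libraries overlapped, in 12 both Fgfr3 libraries were above all Dlx5 libraries and in 23 both were below. Over all genes tested, the libraries did not overlap for 68.9%, 34.8% higher and 34.1% lower. The order of the members by level differed more between the lineages than within them. The Spearman correlation of CPM over the 77 members was 0.80 to 0.83 between libraries of different lineages, 0.95 to 0.97 within the Dlx5 libraries and 0.95 between the Fgfr3 libraries, where over all genes it was 0.66 to 0.76 between lineages, 0.96 to 0.99 within the Dlx5 libraries and 0.94 between the Fgfr3 libraries. These correlations are over genes of the same libraries and describe the libraries only.

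Cytosolic ribosomal protein genes, the components of the other ribosome of the cell, were mostly lower in Fgfr3-derived CAR cells. Of the 82 tested, 77 were lower in Fgfr3-derived CAR cells and 0 higher at an adjusted p under 0.05 by edgeR (1 higher at an unadjusted p under 0.05 and 1 by DESeq2), with a median log2 fold change of -1.53. Their summed level was 12000 to 13639 CPM in the Dlx5 libraries and 4296 and 4655 CPM in the Fgfr3 libraries, a ratio of group means of 0.344. The summed level of the mitochondrial members was 2519 to 2669 CPM in the Dlx5 libraries and 2267 and 2584 CPM in the Fgfr3 libraries, which overlap, with a ratio of 0.939. The cytosolic set has shorter transcripts, with a median longest transcript of 1100 bases against 1849 for the members. Pseudogene copies of the cytosolic set were not counted. The part of length, copies or sequencing in this contrast was not tested.

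**Figure D2:**
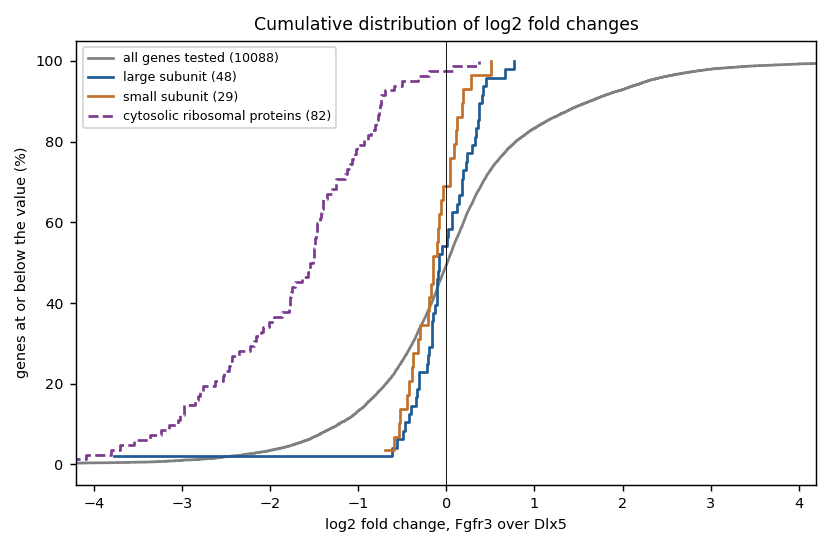
Cumulative share of genes (vertical axis, percent) at or below each log2 fold change (horizontal axis, Fgfr3 over Dlx5) for all 10088 genes tested, the 48 large and 29 small subunit members and 82 cytosolic ribosomal protein genes. The members' curves rise steeply near 0, with medians of -0.09 and -0.15, where the cytosolic set has a median of -1.53.

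Levels corrected for gene length (TPM, scaled to the same total in each library and computed from the counts and the length of all exons) gave a total for the members that overlapped between the lineages. The 78 members summed to 3835, 3979 and 3820 TPM in the Dlx5 libraries and to 3891 and 4133 TPM in the Fgfr3 libraries. Large subunit members summed to 2425, 2513 and 2403 TPM and to 2530 and 2752 TPM, so both Fgfr3 libraries were above the Dlx5 libraries in TPM. Small subunit members summed to 1410, 1466 and 1417 TPM and to 1361 and 1381 TPM, so both Fgfr3 libraries were below. The large to small ratio of these sums was 1.72, 1.71 and 1.70 in the Dlx5 libraries (mean 1.71 ± 0.0126, SD, n = 3) and 1.86 and 1.99 in the Fgfr3 libraries (1.93 ± 0.0951, SD, n = 2), without overlap. With the subunits taken from the structure, and with the structural subunits without an Mrp symbol added, the ratio was 1.68, 1.65 and 1.62 against 1.80 and 1.89. As sums of CPM, large subunit members had 1654, 1544 and 1585 against 1439 and 1656, which overlap. Small subunit members had 1015, 975 and 980 CPM against 828 and 927 CPM, and the ratio was 1.63, 1.58 and 1.62 against 1.74 and 1.79. Without mitochondrially encoded and cytosolic ribosomal protein genes in the total, all members summed to 4018, 4167 and 3992 TPM against 3988 and 4207 TPM. Per gene, the subunits differed less, with a median log2 fold change of -0.09 over 48 large and -0.15 over 29 small subunit members, a gap of 0.06.

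Grouped by the subunit in the structure and by origin of the protein, few members of any class were called. Of 28 tested large subunit proteins with bacterial homologues, 1 was higher and 3 lower, with a median log2 fold change of -0.02. Of 22 mitochondria-specific large subunit proteins, 1 was higher and 1 lower, with a median of -0.10. The mitochondria-specific classes include Mrps18a (large subunit) and Mrps18b (small subunit), although both are paralogues of a bacterial protein. None of the 16 small subunit proteins with bacterial homologues was called by edgeR (1 higher and 2 lower at an unadjusted p under 0.05, 2 lower by DESeq2), with a median of -0.17, and of 10 mitochondria-specific ones, 2 were lower, with a median of -0.12.

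In the large subunit, the stalk that recruits translation factors showed no called difference. Mrpl12, which forms the stalk and is also known to bind the mitochondrial RNA polymerase, had 47.8, 35.4 and 39.0 CPM in the Dlx5 libraries and 44.4 and 58.3 CPM in the Fgfr3 libraries, a log2 fold change of 0.33 ± 0.19 (SE) with an adjusted p of 0.199. Mrpl10, which anchors the stalk, had 58.2, 65.2 and 58.6 CPM against 54.2 and 58.7 CPM, a log2 fold change of -0.10 with a 95% interval of -0.43 to 0.22. Mrpl11, at the base of the stalk, had 17.5, 16.8 and 18.3 CPM against 14.5 and 18.2 CPM, a log2 fold change of -0.10 with an interval of -0.58 to 0.37. In these 3 genes the libraries of the lineages overlapped.

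Mrpl3, a core protein near the peptidyl transferase centre, had 39.5, 37.8 and 40.9 CPM in the Dlx5 libraries and 45.4 and 40.6 CPM in the Fgfr3 libraries, a log2 fold change of 0.13 with an interval of -0.21 to 0.46. Mrpl44, a mitochondria-specific protein with an RNase III fold, had 18.7, 15.8 and 16.5 CPM against 18.8 and 21.1 CPM, a log2 fold change of 0.23 with an interval of -0.22 to 0.68. Mrpl58, a peptidyl-tRNA hydrolase that rescues stalled ribosomes, had 36.5, 35.5 and 34.0 CPM against 26.6 and 34.9 CPM, a log2 fold change of -0.20 with an interval of -0.61 to 0.21. None of the 3 was called by edgeR, and both Mrpl3 and Mrpl58 overlapped between lineages.

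The large subunit members with the highest mean levels were Mrpl28 at 158 TPM, Mrpl18 at 139 TPM and Mrpl27 at 118 TPM, where the median over all members was 39.5 TPM. Mrpl28 had 78.0, 67.4 and 70.5 CPM in the Dlx5 libraries and 53.6 and 75 CPM in the Fgfr3 libraries, with an adjusted p of 0.488. Mrpl18, which in bacteria binds the 5S rRNA, had 61.6, 47.0 and 52.4 CPM against 61.9 and 81.3 CPM, with an adjusted p of 0.102. Mrpl28 overlapped and Mrpl18 was just above all Dlx5 libraries.

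The called members that were higher in Fgfr3-derived CAR cells were Mrpl33 and Mrpl45. Mrpl33, a small protein with a bacterial homologue, had 27.6, 24.1 and 23.3 CPM in the Dlx5 libraries (mean 25 ± 2.31, SD, n = 3) and 36.6 and 48.6 CPM in the Fgfr3 libraries (42.6 ± 8.51, SD, n = 2). Its log2 fold change was 0.77 ± 0.18 (SE) with an adjusted p of 0.0127, a 1.7-fold higher level. Mrpl45, which ties the ribosome to the inner membrane near the exit tunnel, had 22.7, 23.1 and 23.9 CPM (23.3 ± 0.594, SD, n = 3) and 34.5 and 39.3 CPM (36.9 ± 3.41, SD, n = 2), a log2 fold change of 0.67 ± 0.15 (SE) with an adjusted p of 0.0112. In both genes all Fgfr3 libraries were above all Dlx5 libraries. Mrpl33 was no longer called without Dlx5 replicate 2, Dlx5 replicate 3 or Fgfr3 replicate 3 (adjusted p of 0.0562, 0.0503 and 0.0502), and Mrpl45 without Dlx5 replicate 2 (0.0547). Mrpl15 was next in size among large subunit members, with 23.8, 26.8 and 25.6 CPM against 31.9 and 37.6 CPM, and an adjusted p of 0.0549.

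Mrpl54, Mrpl14 and Mrpl27 were lower in Fgfr3-derived CAR cells. Mrpl54, a mitochondria-specific protein, had 27.2, 29.6 and 30.2 CPM in the Dlx5 libraries and 17.7 and 20.3 CPM in the Fgfr3 libraries, a log2 fold change of -0.61 ± 0.17 (SE) with an adjusted p of 0.0223. Mrpl14, a conserved protein at the interface of the subunits, had 29.0, 30.0 and 33.2 CPM against 19.9 and 21.8 CPM, a log2 fold change of -0.56 ± 0.16 (SE) with an adjusted p of 0.0274. Mrpl27, a conserved protein near the peptidyl transferase centre, had 45.7, 41.1 and 37.9 CPM against 29.0 and 31.3 CPM, a log2 fold change of -0.47 ± 0.16 (SE) with an adjusted p of 0.0449. In the 3 genes both Fgfr3 libraries were below all Dlx5 libraries. None of the 3 was called without Dlx5 replicate 2, Dlx5 replicate 3 or Fgfr3 replicate 2, with adjusted p of 0.0878, 0.0859 and 0.101 for Mrpl54, 0.0871, 0.111 and 0.114 for Mrpl14 and 0.13, 0.0772 and 0.18 for Mrpl27. Without Fgfr3 replicate 3, the adjusted p was 0.065 for Mrpl14 and 0.104 for Mrpl27, and without Dlx5 replicate 1 it was 0.102 for Mrpl27. With library size alone as scaling, the adjusted p of the 3 were 0.0766, 0.0975 and 0.186. Their longest transcripts have 604, 645 and 756 bases, and with the trend of fold change with transcript length removed over all genes their log2 fold changes were -0.05, -0.04 and -0.05, with adjusted p of 0.8, 0.838 and 0.803. Mrpl53, a mitochondria-specific protein with a longest transcript of 710 bases that overlaps other genes over 88% of its exons, had 27.8, 25.1 and 28.8 CPM against 17.0 and 21.9 CPM, with an adjusted p of 0.0706.

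**Figure D3:**
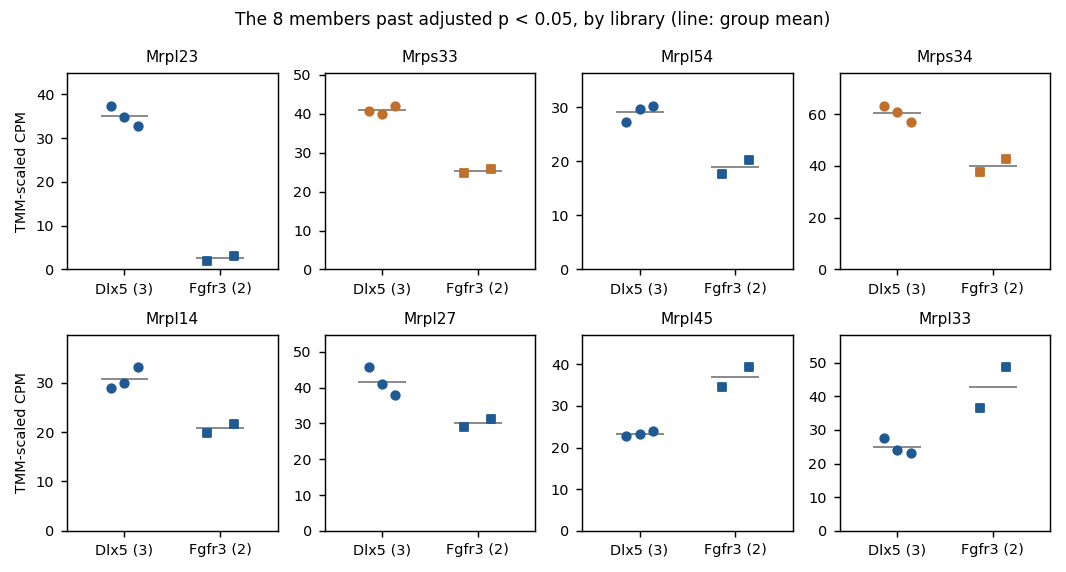
TMM-scaled CPM (vertical axis, from 0) of the 8 members past an adjusted p of 0.05 in the 3 Dlx5 libraries (circles) and the 2 Fgfr3 libraries (squares), large subunit in blue and small subunit in orange, with lines at the group means. In each gene the libraries of the lineages do not overlap, and 6 genes are lower and 2 higher in Fgfr3.

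Mrpl23 had the largest difference of the family. It had 37.3, 34.7 and 32.8 CPM in the Dlx5 libraries (34.9 ± 2.26, SD, n = 3) and 2.00 and 3.12 CPM in the Fgfr3 libraries (2.56 ± 0.792, SD, n = 2). The log2 fold change was -3.77 ± 0.27 (SE) with an adjusted p of 9.84e-05, a 13.6-fold lower level. Mrpl23 passed the filter only through the Dlx5 libraries, where it is high, so that a gene kept in this way had to differ. Its pseudogene Mrpl23-ps1, whose sequence over the coding bases is identical to the gene, was higher in both Fgfr3 libraries, with 77, 59 and 42 counts in the Dlx5 libraries and 1087 and 1289 counts in the Fgfr3 libraries, or 2.64, 2.92 and 1.76 CPM against 18.6 and 21.4 CPM. Added together, the gene and the pseudogene had 40.0, 37.6 and 34.6 CPM in the Dlx5 libraries and 20.6 and 24.5 CPM in the Fgfr3 libraries. Their sum had a log2 fold change of -0.73 ± 0.17 (SE) with an adjusted p of 0.0109, a 1.66-fold lower level, and no member then passed the condition of a log2 fold change beyond 1. Reads that lie wholly within the identical stretch carry no base that tells the gene from the pseudogene, so the values of the gene alone are uncertain. Without each library in turn, the log2 fold change of the gene alone ranged from -4.06 to -3.41, with the same limit from the filter.

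**Figure D4:**
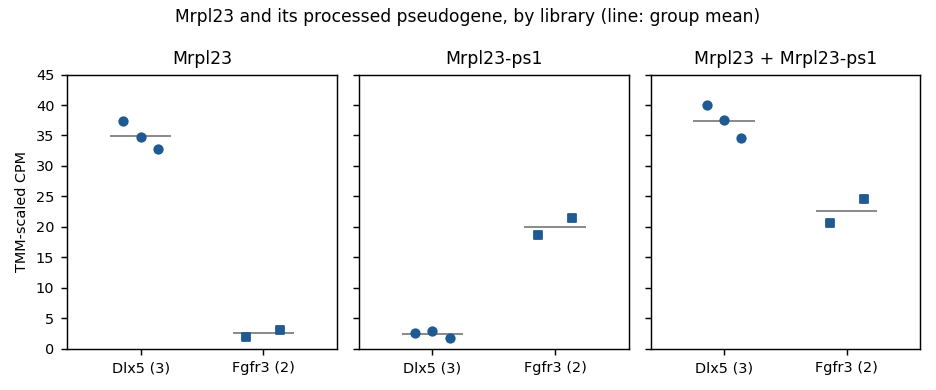
TMM-scaled CPM (vertical axis, from 0) of Mrpl23, of its processed pseudogene Mrpl23-ps1 and of their sum in the 3 Dlx5 libraries (circles) and the 2 Fgfr3 libraries (squares), with lines at the group means. The gene has group means of 34.9 and 2.56 CPM, the pseudogene is higher in Fgfr3, and the sum lies between 20.6 and 40.0 CPM.

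Other members also had pseudogene copies in the counts. Counting pseudogenes elsewhere in the genome that share at least 10% of the 50-base windows of a member's transcript on the same strand, 17 members had 19 copies with a row in the count table. In CPM, 13 of the copies were lower in both Fgfr3 libraries than in all Dlx5 libraries, 4 were higher and 2 overlapped. Over all genes tested, a set without pseudogenes, 34.1% were lower in this way and 34.8% higher. Whether read length or the assignment of reads to copies plays a part was not tested. Of the 19, 9 had at most 3 counts in each Fgfr3 library, among them Gm6181, a copy of Mrps21, with 120, 90 and 82 counts against 0 and 0. Of these 9, 1 (Gm43498, a copy of Mrpl48) also had at most 3 counts in each Dlx5 library. The copies that were higher were Mrpl23-ps1, Gm5776 (a copy of Mrps33), Gm14017 (of Mrpl51) and Gm13552 (of Mrps18b). The longest identical stretch was 540 bases for Mrpl23 and 86 to 328 bases for 18 others. Names of copies were chosen after their values were seen.

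In the small subunit, Mrps12, Mrps7, Mrps2 and Mrps27 were named for their known roles, and none of the 4 was called by edgeR's quasi-likelihood test. Mrps12, a conserved protein of the decoding centre, had 34.8, 36.2 and 36.8 CPM in the Dlx5 libraries and 20.9 and 29.1 CPM in the Fgfr3 libraries, a log2 fold change of -0.52 ± 0.19 (SE) with an adjusted p of 0.0557. It was called lower by DESeq2 (adjusted p 0.0336), by edgeR's exact test (0.048) and with the GC trend removed (0.00773). Mrps7, which binds the rRNA of the head, had 66.4, 48.8 and 55.5 CPM against 47.3 and 54.9 CPM, a log2 fold change of -0.16 with an interval of -0.57 to 0.26. Mrps2 had 26.9, 24.6 and 21.2 CPM against 28.1 and 26.9 CPM, a log2 fold change of 0.18 with an interval of -0.23 to 0.60. Mrps27, a pentatricopeptide repeat protein found only in mitochondria, had 27.2, 24.6 and 22.6 CPM against 21.3 and 26.1 CPM, a log2 fold change of -0.07 with an interval of -0.50 to 0.37. Of the 4, Mrps12 was lower in both Fgfr3 libraries and the others overlapped.

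Mrps33 and Mrps34, both mitochondria-specific, were the called members of the small subunit. Mrps33 had 40.8, 40.0 and 42.0 CPM in the Dlx5 libraries (40.9 ± 1.00, SD, n = 3) and 24.7 and 25.9 CPM in the Fgfr3 libraries (25.3 ± 0.839, SD, n = 2), a log2 fold change of -0.69 ± 0.14 (SE) with an adjusted p of 0.00735. With its copy Gm5776 added, which had 111, 69 and 72 counts against 499 and 608, the log2 fold change was -0.36 with an adjusted p of 0.0712. Mrps34 had 63.2, 60.9 and 57.2 CPM (60.4 ± 3.04, SD, n = 3) and 37.6 and 42.7 CPM (40.1 ± 3.60, SD, n = 2), a log2 fold change of -0.59 ± 0.14 (SE) with an adjusted p of 0.0129. The exons of Mrps34 overlap those of Nme3 and Mapk8ip3 over 77.8% of their length, so its counts depend on how shared reads were assigned. It was no longer called without Dlx5 replicate 2 (adjusted p 0.0558) or without Fgfr3 replicate 2 (0.0623), nor with library size alone as scaling (0.0535).

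The Mrps18 proteins are 3 paralogues of a single bacterial protein that occupy different places in the ribosome, Mrps18a in the large subunit and Mrps18b and Mrps18c in the small subunit. None was called by edgeR, and all 3 overlapped between lineages. Mrps18a had 44.6, 39.7 and 36.6 CPM against 33.3 and 41.4 CPM, Mrps18b had 23.5, 21.8 and 19.1 CPM against 19.9 and 20.8 CPM, and Mrps18c had 20.6, 17.4 and 19.0 CPM against 16.6 and 22.4 CPM. Their log2 fold changes were -0.11, -0.08 and 0.04.

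Of the symbols that depart from the structure, Mrps30 had 32.6, 44.3 and 36.7 CPM in the Dlx5 libraries and 39.8 and 42.9 CPM in the Fgfr3 libraries, a log2 fold change of 0.13 with an interval of -0.29 to 0.54. Mrps36 had 29.0, 22.7 and 23.6 CPM against 16.5 and 18.3 CPM, a log2 fold change of -0.53 ± 0.19 (SE) with an adjusted p of 0.0576. Mrps30 overlapped between lineages and Mrps36 was lower in both Fgfr3 libraries.

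The small subunit members with the highest mean levels were Mrps6 at 151 TPM, Mrps28 at 126 TPM and Mrps21 at 106 TPM, and those with the highest log2 fold changes were Mrps5, Mrps35, Mrps31 and Mrps2. Mrps6 had 75.8, 80.6 and 85.0 CPM in the Dlx5 libraries and 70.6 and 53.7 CPM in the Fgfr3 libraries, with an adjusted p of 0.0984. Mrps28 had 34.7, 30.3 and 34.1 CPM against 27.9 and 29.2 CPM (adjusted p 0.297), and Mrps21 had 25.9, 25.9 and 29.2 CPM against 18.3 and 25 CPM (adjusted p 0.226). All 3 were lower in both Fgfr3 libraries without passing the test. Mrps5 had 20.7, 26.8 and 23.5 CPM against 28.4 and 39.0 CPM, with a log2 fold change of 0.51 and an adjusted p of 0.0796, and Mrps35 and Mrps31 had log2 fold changes of 0.28 and 0.19.

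Fold changes of the members varied with transcript length. The 17 members with a longest transcript under 1000 bases had a median log2 fold change of -0.34, close to -0.38 for the 370 genes of that length among all tested. Without cytosolic ribosomal protein genes, the median of the 335 genes of that length was -0.31. The median was -0.08 for 24 members of 1000 to 2000 bases, 0.07 for 25 members of 2000 to 4000 bases and -0.10 for 11 longer members. All genes of these lengths had medians of 0.09, 0.16 and -0.16. Over the 77 members the Spearman correlation of length with log2 fold change was 0.29, and that of GC content was -0.23, whereas over all 10083 genes with a length they had the other sign, at -0.15 and 0.12. With both trends removed over all genes, the large subunit median was 0.03.

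**Figure D5:**
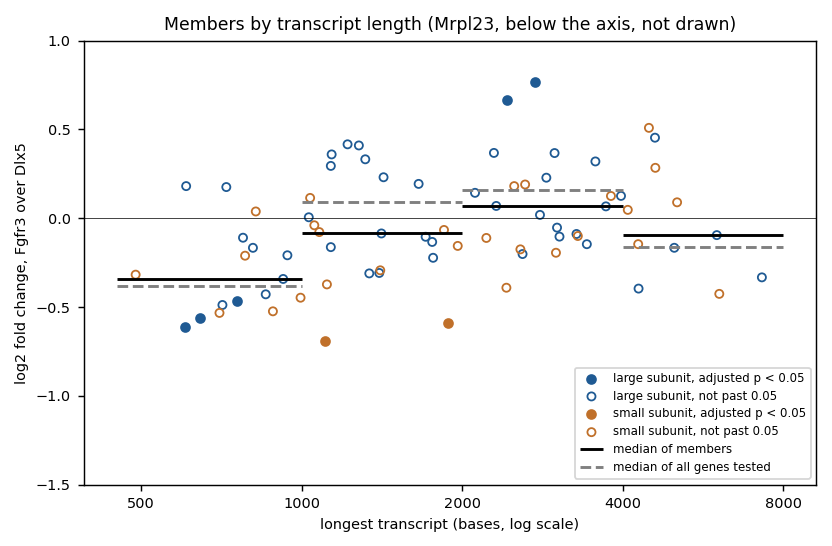
Log2 fold change (vertical axis, Fgfr3 over Dlx5) of the members against the length of their longest transcript (horizontal axis, bases, log scale), large subunit in blue and small subunit in orange, filled where the adjusted p was under 0.05. Black lines are medians of the members in 4 length classes and grey dashed lines those of all genes tested, and under 1000 bases both medians are below 0, at -0.34 and -0.38. Mrpl23 is not drawn.

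The 2 Fgfr3 libraries differed from each other in the members as a group. Of the 78 members, 66 (84.6%) had a higher level in Fgfr3 replicate 3 than in Fgfr3 replicate 2, against 48.5% of all genes tested, with a median log2 ratio of 0.20. Replicate 3 held more leukocyte marker counts and fewer chondrocyte marker counts, as given above. Without Fgfr3 replicate 2, the median log2 fold change against the Dlx5 libraries was 0.10 for the large subunit and 0.03 for the small subunit, and 6 members were higher and 3 lower. With all libraries, both medians were also above 0 with library size alone as scaling, at 0.09 and 0.04, so their direction depends on the scaling as well as on that library.

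Partner genes of mitochondrial translation were taken from lists written by hand, 102 genes of which 82 were tested. At an adjusted p under 0.05, 8 (9.76%) were higher and 12 (14.6%) lower in Fgfr3-derived CAR cells. Both shares were below those of all genes tested, of which 25% were higher and 23.4% lower. The shares of all genes also stand beside the counts of each list below. Of the 5 subunits without an Mrp symbol, Gadd45gip1, which sits in the large subunit and is also known as a nuclear cell cycle inhibitor, was lower, with 41.1, 42.6 and 41.9 CPM in the Dlx5 libraries and 18.5 and 24.6 CPM in the Fgfr3 libraries, a log2 fold change of -0.96 ± 0.18 (SE) with an adjusted p of 0.00459. The 4 small subunit genes of that kind, among them Dap3, were not called.

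Of 19 tested genes for ribosome assembly and rRNA modification, 1 was higher and 1 lower. Noa1, a GTPase of small subunit assembly, had 19.5, 24.7 and 18.3 CPM in the Dlx5 libraries and 28.4 and 34.3 CPM in the Fgfr3 libraries (adjusted p 0.0454), and Mpv17l2, an inner membrane protein of ribosome assembly, had 51.1, 47.4 and 48.9 CPM against 23.5 and 34.8 CPM (adjusted p 0.0182). Of 13 translation factors and activators, 1 was higher and 0 lower by edgeR (1 lower at an unadjusted p under 0.05 and 1 by DESeq2), Guf1 being the higher gene, a GTPase that binds the ribosome, with 8.72, 14.4 and 21.3 CPM against 53.4 and 31.7 CPM and a log2 fold change of 1.53 ± 0.39 (SE). Of 18 mitochondrial tRNA synthetases and amidotransferase subunits, 3 were higher and 3 lower. The tryptophan enzyme Wars2 had 11.3, 19.9 and 18.4 CPM against 4.81 and 5.79 CPM, and the tyrosine enzyme Yars2 had 5.08, 4.11 and 11.3 CPM against 15.2 and 21.7 CPM, with adjusted p of 0.00539 and 0.0332. Wars2 passed the filter only through the Dlx5 libraries, where it is high, and Yars2 only through the Fgfr3 libraries, where it is high. The filter used CPM without TMM factors, unlike the values given here. Genes kept in this way had to differ.

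The genes that act on mitochondrial DNA were mostly not called. Of 7 tested, Polg, the catalytic subunit of the mitochondrial DNA polymerase, was higher, with 32.5, 33.7 and 41.9 CPM in the Dlx5 libraries and 84.3 and 100.6 CPM in the Fgfr3 libraries, a log2 fold change of 1.36 ± 0.17 (SE) with an adjusted p of 0.000871. Of 12 tested genes encoded by mitochondrial DNA, the templates that the mitochondrial ribosome translates, 6 (50%) were lower and 1 (8.33%) higher. Of all genes tested, 23.4% were lower and 25% higher. The median log2 fold change of these 12 genes was -0.80. Their summed level was 6592 to 7829 CPM in the Dlx5 libraries and 3999 and 2521 CPM in the Fgfr3 libraries. The genes with the largest differences were mt-Atp6, with 1177, 1102 and 1059 CPM against 253 and 123 CPM, and mt-Co3, with 602, 615 and 622 CPM against 229 and 148 CPM. The called higher gene was mt-Nd6, with 27.6, 22.3 and 17.5 CPM against 47.7 and 38.0 CPM. The gene mt-Atp8 was not called, with 69.1, 58.8 and 49.1 CPM against 129 and 63.8 CPM and a log2 fold change of 0.71. Both mt-Nd6 and mt-Atp8 were named after their values were seen. The log2 fold changes of the 12 genes ranged from -2.57 to 0.93. Copies of these genes elsewhere in the genome were not counted. The part of copies, of read assignment between neighbouring genes or of sequencing in these differences was not tested.

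Among the regulators of mitochondrial biogenesis, Esrra was higher and Gabpb2 lower. Esrra, an orphan nuclear receptor that drives mitochondrial genes with PGC-1 coactivators, had 5.60, 5.25 and 6.61 CPM in the Dlx5 libraries and 13.1 and 17.0 CPM in the Fgfr3 libraries, a log2 fold change of 1.37 ± 0.25 (SE) with an adjusted p of 0.00407. It passed the filter only through the Fgfr3 libraries, where it is high, so that a gene kept in this way had to differ. Gabpb2, a subunit that pairs with Gabpa, had 36.2, 42.8 and 39.2 CPM against 12.6 and 11.3 CPM, a log2 fold change of -1.72 ± 0.17 (SE) with an adjusted p of 0.000385. Nrf1 had 69.8, 70.2 and 70.2 CPM against 71.0 and 69.8 CPM, and its log2 fold change was 0.01. Gabpa, Gabpb1, Yy1, Pprc1 and Myc had log2 fold changes of -0.13, -0.18, 0.02, 0.31 and -0.58 and were not called, with an adjusted p of 0.0718 for Myc. Ppargc1a and Ppargc1b, which encode PGC-1 coactivators, did not pass the filter, with at most 1.17 and 4.06 CPM in any library.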

How the data were processed

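Libraries of sorted cells from 3 Dlx5 and 2 Fgfr3 pools were made with SMART-Seq amplification and Nextera XT, without molecular identifiers. Per the submitters' processing notes and the study's methods, the authors aligned reads to mm10 with TopHat2 2.0.13 and Bowtie2 2.2.1 and deposited raw read counts per Ensembl gene. HTSeq is listed among the tools, and its strand setting is not given in the sources used here. The authors' depth-normalized and rlog tables were not used here. The labels and design text name a HiSeq for all libraries, where the methods name different instruments for the lineages.

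Symbols, types and lengths came from GENCODE M21 on GRCm38, in which 29965 identifiers were found and 76 were not. Protein-coding genes and reporters entered the fit if 2 or more of the 5 libraries reached a CPM of 10, computed without TMM factors. The fit used edgeR 4.0.16 under R 4.3.3 (TMM, quasi-likelihood test, lineage as the only term), and p-values were adjusted over all 10088 genes by the Benjamini-Hochberg method. The standard error is the fold change divided by the root of F, and 95% intervals use the test's degrees of freedom. TPM was computed from the counts and union exon length. The fit was tested on simulated data. DESeq2 1.42.0 and other filters, scalings, trends and left-out libraries were alternatives. Every pair of libraries of a group differed beyond sampling noise. The p-values set the difference between the lineages against the spread between these libraries, each of which is a pool of mice.

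The members and lists were chosen with earlier results of these data known. Members were named if past an adjusted p of 0.05 with a log2 fold change beyond 1, among the 4 highest or 4 lowest fold changes or the 3 highest TPM of a subunit, if they failed the filter, or for their known role. Of each partner list the 2 called genes with the largest change were named, and all biogenesis regulators.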

Additional observations from a re-analysis of the deposited data

How the results depend on the processing

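Leaving out each library moved the number of members called higher from 0 to 6 (2 with all libraries) and lower from 2 to 5 (6), with a log2 fold change beyond 1 from 0 to 1 higher and from 1 to 1 lower, and partner genes from 4 to 9 higher (8) and from 9 to 13 lower (12). The subunit medians ranged from -0.10 to 0.10 (large) and from -0.20 to 0.0266 (small), above 0 only without Fgfr3 replicate 2. With library size alone as scaling, the median of all genes shifted from 0.01 to 0.19, the subunit medians were 0.094 and 0.0352, 8 members were higher and 2 lower, and 17 partner genes were higher. DESeq2's Wald test called 11 members lower. With the GC trend, the length trend or both removed, 4, 6 and 6 members were higher, and with both removed the large subunit median was 0.0342 and Mrpl27 was at 0.0315. With pseudogene copies added, an alternative chosen after seeing the data, 0 members were lower beyond a log2 fold change of 1. Without mitochondrially encoded and cytosolic ribosomal protein genes 6 partner genes were lower. The log2 ratio of the summed member level was 0.05 in TPM and -0.0915 as a sum of CPM. Other than by construction, where fewer libraries or genes were fitted or copies added, the cause was not tested. Of the 8 called members, Mrpl23, Mrpl33 and Mrpl45 were called under every alternative that left no library out. Mrpl23 passed the filter only through the Dlx5 libraries, where it is high, so that a gene kept in this way had to differ. Its values alone are also uncertain because of the identical pseudogene, and with that copy added its log2 fold change was -0.73. Of the members named and not called, 14 changed sign in some alternative without being called in either fit.

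With the replicate number as a block, 2 members were higher and 5 lower, Mrpl27 was lost (adjusted p 0.134), 7 partner genes were higher and 12 lower, and the medians were -0.04 and -0.04. The numbers 2 and 3 are shared between lineages but name different pools, and the deviations of same-numbered libraries from their group means correlated at 0.12 and -0.05. Every member had at least 117 counts in each library, so the small number of libraries sets the precision.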
